A study of Mus musculus with 10 samples.

Results

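Described here are 34 genes of mitosis and of the G2/M phase of the cell cycle, in leukemia initiating cells of mice. The genes were taken by name from a fixed list of cyclins, mitotic kinases, kinetochore and spindle proteins, checkpoint proteins and cytokinesis proteins, and no expression value entered the rule. All 34 were found among the 55494 genes of the GENCODE M21 annotation, and all 34 were among the 13729 genes with enough reads to be tested. The libraries were made from total RNA of leukemia initiating cells, which were isolated from spleens of 13-day-old pups in a flow cytometric sort. Every pup in both groups carried the RFP/RET transgene, a fusion oncogene; the mice are named Eμ-RET, after the immunoglobulin heavy chain enhancer Eμ, which acts in B lineage cells. One group of 5 pups had received 50 µl of PBS, and the other group of 5 had received 20 µg of Poly(A:U), an artificial RNA duplex and ligand of Toll-like receptor 3. Cells were collected 7 days after treatment, and the comparison asks how Poly(A:U) affects them. The gate of the sort is not given in the sources used here, and no cells without the transgene were compared.

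A dividing cell enters mitosis when the kinase CDK1, bound to cyclin A or cyclin B, phosphorylates proteins of the chromosomes, the nuclear envelope and the cytoskeleton. Spindle microtubules then attach to kinetochores, the checkpoint kinases hold back the anaphase promoting complex (APC/C) until every chromosome is attached, and the complex afterwards marks cyclin B and securin for destruction. The genes of this programme are transcribed mainly in G2 and mitosis, under the MuvB complex, B-MYB, NF-Y and FOXM1, so in bulk RNA their level is widely read as a sign of how many cells in a population are dividing. Precursor B cells divide in bursts between steps of antigen receptor gene rearrangement.

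The libraries held between 17859006 and 22587871 estimated reads. The lowest count of any of the 34 genes in any library was 378 reads, so counting error was small for all of them. Genes with at least 10 reads numbered 13423 to 14723 in 9 libraries and 16032 in PBS 4. All 9 markers of B cell precursors that were looked at were present in every library, with a summed level of 9546 to 12473 CPM (read counts scaled to a common library total) in 9 libraries and 7765 CPM in PBS 4. Across genes, PBS 4 correlated with the remaining libraries at a median r of 0.939, and each of those at 0.966 or more. PBS 4 therefore stood apart from the rest, and the main counts, ranges and correlations over libraries are also given without it.

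The 34 genes as a group did not separate Poly(A:U) from PBS. Each library was given a score, the mean log2 CPM of the 34 genes (with TMM scaling of the libraries) centred on the mean of the 10 libraries. In PBS 1 to PBS 5 the score was -0.08, -0.14, -0.40, 0.44 and 0.02. In Poly(A:U) 1 to Poly(A:U) 5 it was -0.09, -0.06, -0.04, 0.01 and 0.35. With this scaling the highest and the lowest score were both in PBS libraries, 7 of the 10 libraries lay between -0.14 and 0.02, and the ranges of the groups overlapped. With plain CPM, without TMM scaling, the highest score was that of Poly(A:U) 5 (0.42), above PBS 4 (0.39). PBS 3 was again the lowest (-0.41), and the groups again overlapped. The mean score was -0.03 ± 0.31 (SD, n = 5) with PBS and 0.03 ± 0.18 (SD, n = 5) with Poly(A:U).

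**Figure D1:**
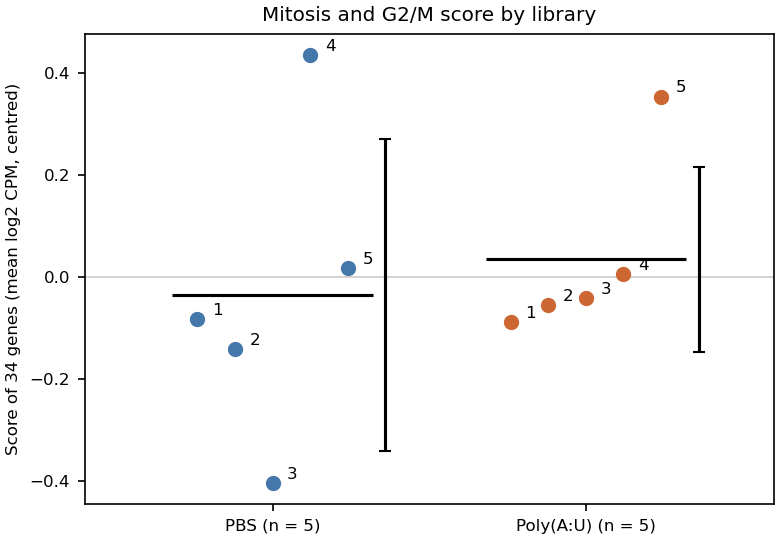
Score of the 34 mitosis and G2/M genes (y axis, mean log2 CPM centred on the 10 libraries) in each library, by treatment (x axis); numbers are replicates, lines are group means and bars are 1 SD. PBS 4 (0.44) and Poly(A:U) 5 (0.35) lie above the other libraries, PBS 3 (-0.40) lies below them, and the 2 group means differ by less than either SD.

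In edgeR's quasi-likelihood test with Benjamini-Hochberg adjustment over 13729 genes, 0 of the 34 genes passed an adjusted p of 0.05, as did 0% of all tested genes. At an unadjusted p below 0.05 there were 0 of 34, beside 7.3% of all tested genes. The DESeq2 Wald test also called 0 of the 34, beside 0.0947% of all genes. Limma voom with quality weights called 1 of the 34, Fbxo5, beside 6.34% of all genes, and gave 9 of 34 an unadjusted p below 0.05, beside 26.1%. The groups overlapped for 34 of 34 genes, and did not overlap for 0.809% of all tested genes. The log2 fold change (Poly(A:U) minus PBS) was above 0 for 24 of 34 genes and for 49.4% of all tested genes, with a median of 0.04 over the 34.

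In edgeR's fit of all 10 libraries, the intervals limited the size of a treatment difference. They do not cover the shift of the estimates with the choice of PBS libraries, which is given below. The 95% interval of the log2 fold change excluded a 2-fold difference in either direction for all 34 genes, and a 1.5-fold difference for 31 of them. The exceptions were Fbxo5, Ttk and Anln. The median interval reached 0.32 to either side of the estimate, against 0.24 for tested genes of 10 CPM or more. The median SD within groups on the log2 scale was 0.26 for the 34 genes and 0.18 for those other genes.

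**Figure D2:**
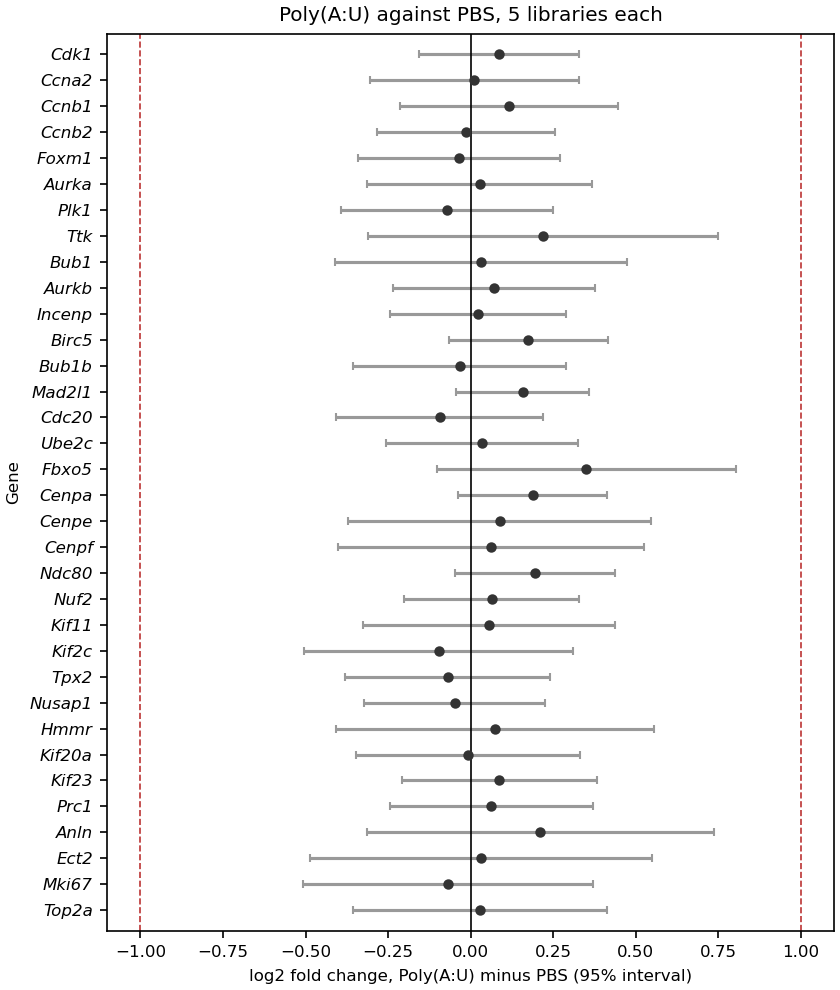
log2 fold change of each of the 34 genes, Poly(A:U) minus PBS (x axis), with its 95% interval from edgeR's quasi-likelihood fit (5 libraries a group); dashed lines mark a 2-fold difference. Every interval includes 0 and none reaches a dashed line; the estimates run from -0.10 for Kif2c to 0.35 for Fbxo5.

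The direction of the group median depended on single libraries. Without PBS 3 the median of the 34 genes was -0.05 and 10 of 34 were above 0 (48.8% of all tested genes). Without Poly(A:U) 5 it was also -0.05, again with 10 above 0 (48.1% of all). Without PBS 4 the median was 0.18 and 33 of 34 genes were above 0 (54.2% of all). Of the 34, 9 had an unadjusted p below 0.05, beside 14.2% of all genes. None of the 34 passed adjustment, as did 0 of all tested genes. Without PBS 4 and Poly(A:U) 5 together the median was 0.10 with 26 above 0, and 9 of 34 had an unadjusted p below 0.05, beside 19.9% of all genes. Without these libraries and PBS 3 it was -0.00 with 17 above 0, and 3 of 34 had such a p, beside 15.6%. The PBS libraries with and without a shared name start gave opposite signs. Without PBS 1 to PBS 3, whose deposited names share a start found in no Poly(A:U) name, the median was -0.19 with 3 above 0 (50.6% of all). With PBS 1 to PBS 3 as the only PBS libraries it was 0.23 with 33 above 0, 13 of 34 had an unadjusted p below 0.05 (20.1% of all), and 2 of 34, Aurkb and Fbxo5, were called (4.31% of all).

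What the genes share beyond their function was looked for in their promoters, which are printed because mitotic genes are known to be controlled through 2 short elements, the CCAAT box bound by NF-Y and the CHR (cell cycle genes homology region) bound by the MuvB complex. RefSeq promoters on GRCm38.p6 (250 bases before to 50 after the start) were at hand for 28 of the 34 genes, 30 promoters in all. For 26 of the 28 genes the last 50 bases matched the start of a transcript in the same direction. The Mad2l1 promoter ends upstream of the GENCODE M21 start of the gene, and that of Kif2c lies inside the gene. Bases around the GENCODE M21 start were thus not searched for these genes. Searched on both strands were CCAAT, the CHR as TTTGAA or TTTAAA, and the E2F site as TTTCCCGC or TTTGGCGC. Matches on opposite strands that overlap were counted separately, as happens once in Ube2c, and no CCAAT match overlapped a CHR match in these 30 promoters. CCAAT was found in 23 of 30 (76.7%), against 37.4% of the 32851 promoters in the table, and 16 of 30 (53.3%) held at least 2, against 11.7%. This was not particular to the 34 genes. Among the other cell cycle lists described below, CCAAT was in 77.8% of promoters of CDK1 regulators and 69.7% for other spindle and cytokinesis genes. Kinetochore partners and G1/S and DNA replication genes each had 69.0%, and CDK inhibitors and arrest genes 68.8%. Condensin and cohesin genes had 52.9%, MuvB and DREAM genes 41.2% and APC/C genes 38.9%. The CHR was found in 26 of 30 (86.7%), against 27.6%. It was in 72.7% of promoters of other spindle and cytokinesis genes, and in 11.1% (APC/C genes) to 48.3% (kinetochore partners) for the remaining lists. Both elements stood together in 22 of 30 (73.3%), against 10.7%, and in 60.6% for other spindle and cytokinesis genes. The 2 E2F sequences were found in 0 of 30, close to the 1.57% of all promoters, and in 8 of the 29 promoters of G1/S and DNA replication genes. Other forms of the E2F site were not searched for, so these counts do not show that a promoter lacks one. A match describes the letters in the window and does not show that a factor binds there.

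The 250 bases before the start of 8 genes are given below 5′ to 3′ on the gene's strand, with CCAAT and CHR matches of either strand in capitals. Cdk1 (chr10:69352913-69353162, minus strand), Ccnb1 (chr13:100786487-100786736, minus strand), Plk1 (chr7:122159185-122159434, plus strand), Cdc20 (chr4:118437344-118437593, minus strand) and Ube2c (chr2:164769679-164769928, plus strand) are central regulators. Top2a (chr11:99024190-99024439, minus strand) and Mki67 (chr7:135716380-135716629, minus strand) had the highest CPM of the 34. Nuf2 (chr1:169531465-169531714, minus strand) is 1 of 3 genes, with Mad2l1 and Nusap1, in which neither element was found in the bases searched. Over the 10 libraries the level of Nuf2 nonetheless followed the mean of the other 33 at r = 0.99.
Cdk1: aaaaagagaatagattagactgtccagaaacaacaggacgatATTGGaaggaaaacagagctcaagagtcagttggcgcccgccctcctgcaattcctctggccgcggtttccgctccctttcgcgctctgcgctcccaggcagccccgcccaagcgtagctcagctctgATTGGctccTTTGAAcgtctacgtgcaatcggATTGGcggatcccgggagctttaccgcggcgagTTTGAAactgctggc
Ccnb1: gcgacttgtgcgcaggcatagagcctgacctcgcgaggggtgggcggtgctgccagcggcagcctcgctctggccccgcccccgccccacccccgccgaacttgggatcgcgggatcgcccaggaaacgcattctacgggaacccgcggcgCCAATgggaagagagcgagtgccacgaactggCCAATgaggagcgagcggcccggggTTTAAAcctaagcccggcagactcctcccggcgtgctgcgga
Plk1: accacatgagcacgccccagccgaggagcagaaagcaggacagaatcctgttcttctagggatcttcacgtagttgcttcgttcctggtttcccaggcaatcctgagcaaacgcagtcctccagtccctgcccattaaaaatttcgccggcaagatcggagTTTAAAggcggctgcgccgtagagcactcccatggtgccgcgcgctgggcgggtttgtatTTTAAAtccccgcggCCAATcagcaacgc
Cdc20: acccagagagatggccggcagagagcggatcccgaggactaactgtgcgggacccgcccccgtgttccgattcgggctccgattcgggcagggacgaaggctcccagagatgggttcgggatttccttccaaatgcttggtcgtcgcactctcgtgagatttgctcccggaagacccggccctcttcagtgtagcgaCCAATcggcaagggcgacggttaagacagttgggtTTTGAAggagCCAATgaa
Ube2c: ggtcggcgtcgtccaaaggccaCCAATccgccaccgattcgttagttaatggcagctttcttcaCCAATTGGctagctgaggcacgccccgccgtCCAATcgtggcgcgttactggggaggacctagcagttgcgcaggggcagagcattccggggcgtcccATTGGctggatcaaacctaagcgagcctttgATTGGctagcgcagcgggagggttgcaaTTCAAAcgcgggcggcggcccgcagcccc
Top2a: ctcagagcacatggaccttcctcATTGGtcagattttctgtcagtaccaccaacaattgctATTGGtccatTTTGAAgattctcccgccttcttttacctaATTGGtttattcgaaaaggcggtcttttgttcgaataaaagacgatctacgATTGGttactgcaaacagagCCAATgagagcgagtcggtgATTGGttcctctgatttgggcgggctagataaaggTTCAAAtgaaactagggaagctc
Mki67: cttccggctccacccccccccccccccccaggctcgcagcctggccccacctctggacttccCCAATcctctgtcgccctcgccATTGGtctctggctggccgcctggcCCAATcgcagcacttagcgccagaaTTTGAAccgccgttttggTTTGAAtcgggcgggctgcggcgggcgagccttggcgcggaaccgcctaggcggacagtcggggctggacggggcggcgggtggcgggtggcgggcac
Nuf2: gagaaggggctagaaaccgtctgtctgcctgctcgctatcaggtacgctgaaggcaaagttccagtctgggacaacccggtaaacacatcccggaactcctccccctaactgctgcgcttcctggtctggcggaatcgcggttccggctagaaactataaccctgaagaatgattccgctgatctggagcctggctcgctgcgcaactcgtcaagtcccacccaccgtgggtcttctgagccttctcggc

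In these sequences Ccnb1 has CCAAT 99 and 67 bases upstream of the start and TTTAAA 42 bases upstream, each distance being counted to the first base of the match. Cdc20 has CCAAT at 53 and 8 bases and TTTGAA at 18 bases upstream. Top2a and Ube2c each hold 6 CCAAT matches, the most of the 28 genes, and each has a CHR match of the opposite strand (TTCAAA), 23 and 29 bases upstream. In Mki67 the elements lie farther from the start, with CCAAT matches 188, 166 and 141 bases and CHR matches 116 and 98 bases upstream. A CHR match within 60 bases of the start, a window chosen after the positions were seen, was present in 23 of 30 promoters (76.7%), against 9.12% of all promoters. For other spindle and cytokinesis genes the share was 63.6%.

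**Figure D3:**
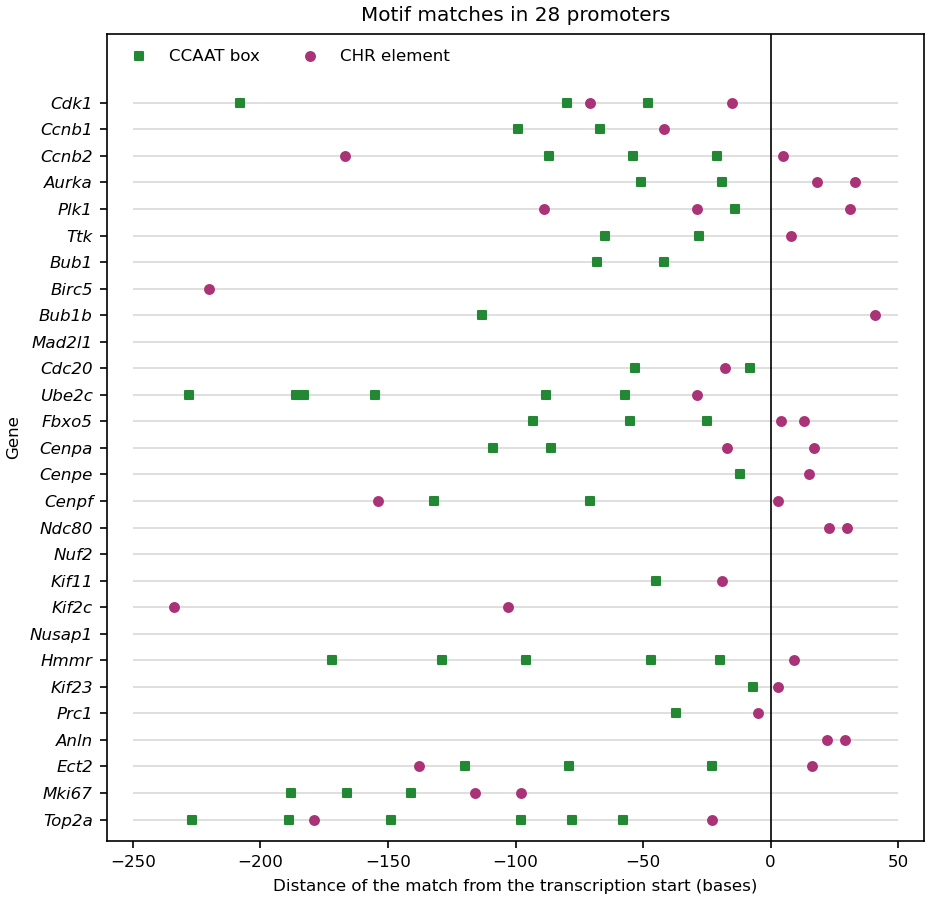
Position of CCAAT (squares) and CHR (circles) matches in the promoters of 28 genes (y axis) by distance from the transcription start in bases (x axis); for a gene with 2 promoters, 1 is drawn. Most CHR matches lie within 60 bases of the start, and the CCAAT matches drawn lie upstream of it; Mad2l1, Nuf2 and Nusap1 have none.

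Among the cyclins, CDK1 and the factor FOXM1, levels compared per length (TPM, abundance corrected for transcript length) were highest for Cdk1, the kinase that starts mitosis, at 176 ± 27 TPM (SD, n = 10). Ccna2 (cyclin A2) and Ccnb2 (cyclin B2) followed with 138 ± 30 and 132 ± 18 TPM, which do not differ beyond their spread. Ccnb1, the main cyclin of mitotic entry, had 74.6 ± 20.8 TPM, and Foxm1, a transcription factor that activates G2/M genes, 35.1 ± 9.6 TPM. Ccnb1 was at 107, 107, 89.9, 163 and 108 CPM in PBS 1 to PBS 5, and at 108, 110, 121, 128 and 156 CPM in Poly(A:U) 1 to Poly(A:U) 5. PBS 4 and Poly(A:U) 5 were the high libraries, PBS 3 was the low one, and the groups overlapped. Its log2 fold change was 0.12 ± 0.15 (SE), with an adjusted p of 0.844 in edgeR's quasi-likelihood test. The other 4 genes of this role gave between -0.04 (Foxm1) and 0.09 (Cdk1). Cdk1 had the narrowest range here: 106 to 162 CPM with PBS and 121 to 151 CPM with Poly(A:U).

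The mitotic kinases included Plk1, which drives centrosome maturation and mitotic entry, Aurka, which builds the spindle poles, and the checkpoint kinases Ttk and Bub1. Plk1 was at 124, 125, 104, 191 and 111 CPM in the PBS libraries, and at 112, 132, 128, 114 and 138 CPM in the Poly(A:U) libraries. The value of PBS 4 lay above all others, and those of the Poly(A:U) libraries fell inside the range of the PBS libraries. Its log2 fold change was -0.07 ± 0.15 (SE; adjusted p = 0.911, edgeR's quasi-likelihood test). Ttk, which activates the spindle checkpoint, had the widest range of the 34 genes, 2.63-fold between its lowest value (20.4 CPM, PBS 3) and its highest (53.6 CPM, Poly(A:U) 5). Its log2 fold change was 0.22 ± 0.24 (SE). Aurka and Bub1 both gave 0.03, with Bub1 between 40.3 and 91.2 CPM with PBS and between 50.5 and 81.8 CPM with Poly(A:U).

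The chromosomal passenger complex corrects wrong attachments of microtubules and later guides cytokinesis. Aurkb, its kinase, was at 77.0, 80.8, 71.7, 131 and 95.3 CPM with PBS, and at 94.8, 95.5, 90.9, 94.6 and 102.5 CPM with Poly(A:U). The Poly(A:U) libraries lay close together, above PBS 1 to PBS 3, beside PBS 5 and below PBS 4. The difference was 0.07 ± 0.14 (log2, SE; adjusted p = 0.909, edgeR's quasi-likelihood test). Birc5 (survivin) gave 0.17 ± 0.11 and Incenp, the scaffold of the complex, 0.02 ± 0.12. Birc5 was highest in Poly(A:U) 2 (117 CPM) and lowest in PBS 3 (73.1 CPM).

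Of the checkpoint and APC/C genes, Ube2c, the ubiquitin conjugating enzyme of the APC/C, was the second in level of all 34 genes per length, at 277 ± 35 TPM (SD, n = 10). Cdc20, the coactivator that the checkpoint holds back, was at 142, 141, 113, 217 and 138 CPM with PBS, and at 138, 140, 128, 140 and 158 CPM with Poly(A:U). As for Plk1, PBS 4 was the highest and PBS 3 the lowest, with all Poly(A:U) libraries between. The log2 fold change of -0.09 ± 0.14 (SE) was the second lowest of the 34. Bub1b and Mad2l1, 2 parts of the complex that restrains Cdc20, gave -0.03 ± 0.15 and 0.16 ± 0.09.

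Fbxo5 (EMI1), which inhibits the APC/C before mitosis, had the largest estimate of the 34 genes. It was at 43.2, 46.4, 39.4, 85.3 and 75.8 CPM in PBS 1 to PBS 5, and at 62.2, 78.8, 74.6, 70.7 and 83.8 CPM in Poly(A:U) 1 to Poly(A:U) 5. PBS 1 to PBS 3 lay below every Poly(A:U) library, whereas PBS 4 and PBS 5 lay among them. The log2 fold change was 0.35 ± 0.21 (SE; 95% interval -0.10 to 0.81; adjusted p = 0.699, edgeR's quasi-likelihood test). Limma voom with quality weights, which gives libraries unequal weight, put it at 0.60 with an adjusted p of 0.0329. Without PBS 1 to PBS 3 it was -0.12. Against PBS 1 to PBS 3 alone it was 0.78, with an adjusted p of 0.00532 in edgeR's quasi-likelihood test. What the shared name start of these libraries stands for is not given in the sources used here, and against them alone it cannot be told apart from a treatment difference.

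Kinetochore and centromere genes gave estimates above 0 in 5 of 5. Cenpa encodes the histone H3 variant that marks centromeres. It was at 116, 141, 113, 160 and 125 CPM with PBS, and at 134, 167, 157, 144 and 144 CPM with Poly(A:U). It had the smallest unadjusted p of the 34 genes, 0.0964, at a log2 fold change of 0.19 ± 0.10 (SE; adjusted p = 0.695, edgeR's quasi-likelihood test). The groups overlapped, since PBS 2 and PBS 4 reached 141 and 160 CPM. Ndc80 and Nuf2, partners in the complex that grips microtubules, gave 0.19 ± 0.11 and 0.06 ± 0.12. The large kinetochore proteins Cenpe, a motor, and Cenpf gave 0.09 ± 0.21 and 0.06 ± 0.21, and both were highest in Poly(A:U) 5, at 181 and 223 CPM.

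The leading transcript of Cenpa was the same in both groups, but the share that the authors' estimation gave it differed between them. Cenpa-202, annotated as a target of nonsense-mediated decay, took 46.5%, 50.3%, 49.1%, 49.7% and 52.1% of the gene's TPM in PBS 1 to PBS 5, and 57.9%, 53.9%, 52.7%, 56.9% and 54.5% in Poly(A:U) 1 to Poly(A:U) 5. The groups did not overlap, although the nearest libraries were 52.1% and 52.7%. It was 1 such case among the 26 of 34 genes with at least 2 transcripts of 1 TPM or more on average, and 0.526% of the 6273 genes of 10 CPM or more with at least 2 such transcripts showed the same. This case was singled out after its values were seen, so no test is given. Shares of single transcripts come from the authors' estimation and depend on the annotation; those of Mki67, Ube2c and Plk1 rested almost wholly on 1 transcript (99.0% or more in both groups on average).

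Spindle motors and microtubule binders had the lowest median log2 fold change of the 8 roles, -0.05, with 2 of 5 genes above 0. Kif11, the motor that pushes spindle poles apart, was at 203, 182, 152, 261 and 223 CPM with PBS, and at 200, 160, 191, 206 and 304 CPM with Poly(A:U). Here Poly(A:U) 5 and not PBS 4 was the highest. Kif2c, which removes tubulin from microtubule ends, had the lowest estimate of the 34 genes, -0.10 ± 0.19 (SE; adjusted p = 0.904, edgeR's quasi-likelihood test). Tpx2, the activator of Aurora A, gave -0.07 ± 0.14, Nusap1 -0.05 ± 0.13 and Hmmr 0.07 ± 0.22.

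For cytokinesis, Anln, Ect2 and the central spindle proteins Kif23, Kif20a and Prc1 were measured. Anln, a scaffold of the contractile ring, had the lowest level per length of all 34 genes, 13.2 ± 5.0 TPM (SD, n = 10). Its values were 28.2, 25.0, 25.2, 50.1 and 35.1 CPM with PBS, and 29.2, 30.5, 33.1, 36.9 and 59.7 CPM with Poly(A:U). The same pair of libraries was high again, and the difference of 0.21 ± 0.24 (log2, SE) was smaller than its error. The other 4 genes gave between -0.01 (Kif20a) and 0.09 (Kif23).

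Mki67, which coats mitotic chromosomes and is the common stain for dividing cells, had the highest CPM of the 34 but was the eighth per length, at 131 ± 46 TPM (SD, n = 10), its transcript being about 10060 bases long. It was at 1260, 918, 813, 1199 and 998 CPM with PBS, and at 815, 782, 894, 854 and 1606 CPM with Poly(A:U). Without a clear order by treatment, PBS 1, PBS 4 and Poly(A:U) 5 were high. Top2a, which untangles DNA before anaphase, was the highest per length, at 336 ± 49 TPM (SD, n = 10). Its values were 771, 633, 558, 1064 and 815 CPM with PBS, and 719, 634, 711, 810 and 1044 CPM with Poly(A:U). The log2 fold changes were -0.07 ± 0.20 for Mki67 and 0.03 ± 0.18 for Top2a (SE).

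**Figure D4:**
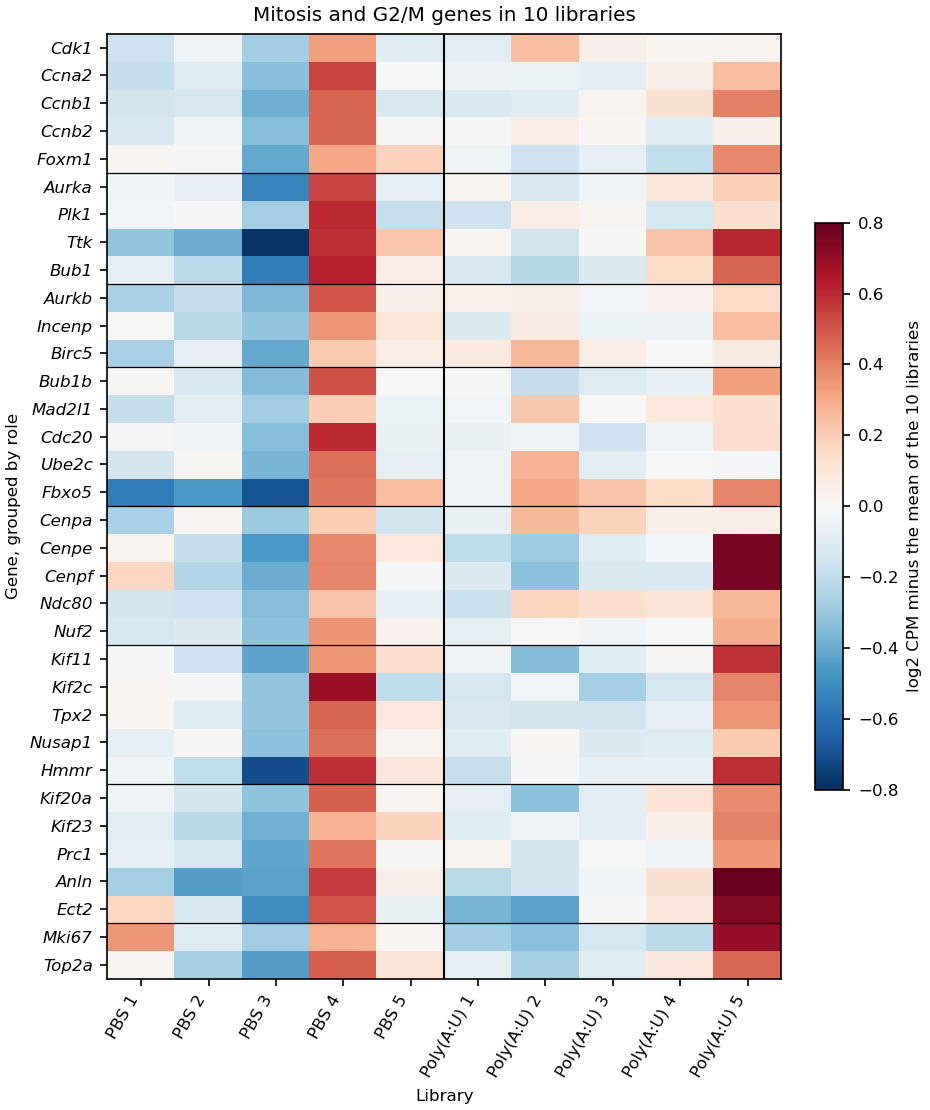
log2 CPM of each of the 34 genes (rows, grouped by role) minus its mean over the 10 libraries (columns), from -0.8 (blue) to 0.8 (red). PBS 4 is above the mean for 34 of 34 genes and Poly(A:U) 5 for 33, while PBS 3 is below it for all 34.

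The 34 genes varied together between libraries of the same treatment. PBS 4 was the highest library for 20 of 34 genes (20.4% of all tested genes) and Poly(A:U) 5 for 11 (16.5% of all), with Poly(A:U) 2 the highest for the other 3. PBS 3 was the lowest library for 31 of 34 (9.89% of all). For 27 of 34 genes the 2 highest libraries were PBS 4 and Poly(A:U) 5, as for 9.18% of all tested genes. From the lowest to the highest library a gene changed 1.82-fold at the median (1.41 for Mad2l1 to 2.63 for Ttk), against 1.51-fold for tested genes of 10 CPM or more. The PBS libraries spread more than the Poly(A:U) libraries for 29 of 34 genes, and for 19 the range of PBS enclosed that of Poly(A:U). Without PBS 4 the fold was 1.63 at the median (1.44 for tested genes of 10 CPM or more), PBS spread more for 18 of 34, its range enclosed that of Poly(A:U) for 0, PBS 3 was the lowest library for 31 and Poly(A:U) 5 the highest for 28. Without PBS 4 and Poly(A:U) 5 together the fold was 1.44 (1.36 for those tested genes), PBS spread more for 30 and its range enclosed that of Poly(A:U) for 15. In bulk RNA, fewer dividing cells and less of each RNA per dividing cell cannot be told apart.

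Over the 10 libraries the median Pearson r of log2 CPM between 2 of these genes was 0.80 (561 pairs, 99.8% above 0). It was 0.83 after the group means were removed, and 0.00 between any 2 tested genes of 10 CPM or more. These are descriptions, since all pairs share the same 10 libraries and their depth, length and composition trends. Bub1 (0.89), Tpx2 (0.89) and Prc1 (0.89) had the highest median r with the others, and Cenpa (0.50), Birc5 (0.63) and Mki67 (0.64) the lowest. The common movement was weaker without 3 libraries: the median r was 0.74 without PBS 4, 0.62 without PBS 4 and Poly(A:U) 5, and 0.15 over the 7 libraries left without PBS 3 as well. These 3 are the 2 highest and the lowest library by the score of the same genes. A lower r therefore follows in part from this choice. Genes of G1/S and DNA replication had 0.71 over 10 libraries and 0.67 over the same 7. The libraries left out were not chosen on the score of that list, so the values are not compared like for like.

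PBS 4 and Poly(A:U) 5 share a number in their deposited names, as do PBS 5 and Poly(A:U) 1, and as do Poly(A:U) 3 and Poly(A:U) 4 within 1 group. Whether that number marks a litter, a day or a run is not given in the sources used here. Within the first pair, Poly(A:U) 5 was above PBS 4 for 11 of 34 genes, with a median difference of -0.09 on the log2 scale. Within the second, Poly(A:U) 1 was above PBS 5 for 11 of 34, with a median of -0.10. For all genes of 10 CPM or more, the shares above were 50.5% and 52.3%. With 1 library a group in each pair there is no test. With the shared name parts as terms in edgeR's fit, the median of the 34 genes was -0.10, with 5 above 0 (49.2% of all). In that fit 0 of 34 were called, as were 0 of all tested genes. Only the first and the second pair have a name part found in both groups. The treatment term of this fit therefore rests on these pairs, here and wherever it is used below, and is not a separate result.

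The high values of Poly(A:U) 5 followed transcript length, and those of PBS 4 did not. Among the 34 genes, Spearman's rho between length and the deviation from the gene's mean was 0.85 for Poly(A:U) 5, -0.83 for Poly(A:U) 2 and 0.10 for PBS 4. Over 9092 tested genes of 10 CPM or more, the same values were 0.69, -0.62 and -0.19, genes not being independent replicates. In Poly(A:U) 5 the 17 longer genes were higher by 0.47 at the median and the 17 shorter ones by 0.15. In PBS 4 these medians were 0.48 and 0.43. Cenpf, Mki67 and Cenpe, the longest of the 34, were highest in Poly(A:U) 5, while the short transcripts of Ube2c and Birc5 were above their mean in Poly(A:U) 2.

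**Figure D5:**
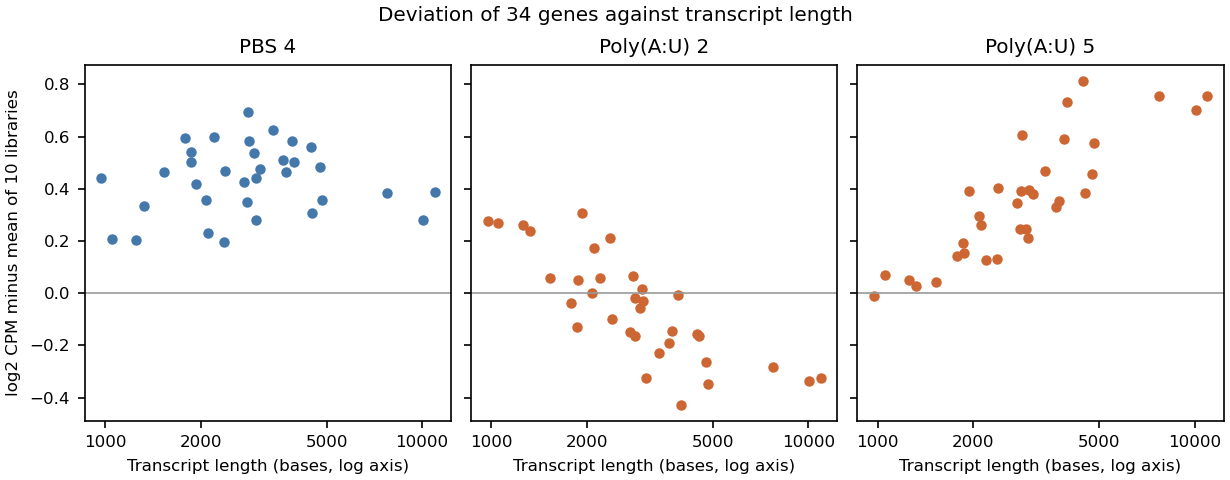
log2 CPM minus the mean of the 10 libraries (y axis) against transcript length in bases (log x axis) for the 34 genes, in PBS 4, Poly(A:U) 2 and Poly(A:U) 5. Points rise with length in Poly(A:U) 5 (rho 0.85), fall in Poly(A:U) 2 (-0.83) and show no such trend in PBS 4 (0.10).

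With the trend of each library with length removed, the order of the scores stayed close to that above: PBS 4 had 0.48, Poly(A:U) 5 had 0.32 and PBS 3 had -0.40. PBS 4 was then the highest library for 29 of 34 genes and Poly(A:U) 5 for 5. The median r between members was 0.86. In edgeR's fit with this trend removed, the median log2 fold change was 0.02, with 21 of 34 above 0 (47.7% of all). With the trend with GC content removed as well it was -0.01, with 15 above 0 (47.3% of all). In either fit 0 of 34 were called, as were 0 of all tested genes.

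Markers of other cells moved with some of these libraries, and their part in the values of the 34 genes was not tested. Summed levels of 7 T cell markers were 80.5 CPM in PBS 4 and 5.05 to 9.90 CPM in the others; Cd8a was below 1 CPM in every library. For 8 macrophage markers the sums were 124 CPM in PBS 4 and 10.5 to 27.2 CPM in the others, and Vsig4 was below 1 CPM throughout. Of the 9 neutrophil markers, PBS 1 to PBS 3 held a sum of 688 to 1035 CPM, and the other 7 libraries 29.2 to 259 CPM. Erythroid markers (10 genes) ran from 138 to 428 CPM in sum for PBS 1 to PBS 3, and from 1288 to 11974 CPM for the others. In Poly(A:U) 5, where the 34 genes were also high, the T cell sum was 9.90 CPM, close to 8.85 CPM in PBS 3, where they were low. The 3 T cell markers with enough reads to be tested did not move alike, with r from -0.73 to 0.80 with the score over the 10 libraries. Trac, a T cell receptor chain, was at 1.88 CPM in Poly(A:U) 5. Trac reached 13.0 CPM in PBS 4, and no other library exceeded 1.04 CPM. The macrophage sum in Poly(A:U) 5 was 19.1 CPM.

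Of 8 B cell precursor genes described here, 7 had an r below 0 with the score, 4 of them of -0.84 or below. Vpreb1 and Igll1, the surrogate light chain of precursor B cells, had r = -0.96 and -0.94 with it over the 10 libraries, and -0.94 and -0.90 without PBS 4. Vpreb1 was at 842 CPM (PBS 4) and 870 CPM (Poly(A:U) 5), against between 1196 and 1613 CPM in the other 8. Cd79a and Cd79b, the signalling parts of the B cell receptor, were also lowest in these 2 libraries, with r = -0.90 and -0.84 (-0.87 and -0.79 without PBS 4). The other 4 genes were not low in Poly(A:U) 5. The B lineage factors Pax5 and Ebf1 were lowest in PBS 4 (786 and 476 CPM), yet in Poly(A:U) 5 they were at 1337 and 735 CPM, above the other Poly(A:U) libraries (946 to 1137 and 569 to 665 CPM). Their r was -0.49 and -0.55, and -0.15 and -0.24 without PBS 4. The recombinase genes Rag1 and Rag2 had r = -0.28 and 0.32 (0.09 and 0.58 without PBS 4), and in Poly(A:U) 5 were at 755 and 203 CPM, again above the other Poly(A:U) libraries.

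Other cell cycle genes were read from 8 lists with 172 genes. In edgeR's quasi-likelihood test with Benjamini-Hochberg adjustment 0 of them were called, as were 0% of all tested genes. Among 28 kinetochore partners, 4 had an unadjusted p below 0.05, all higher with Poly(A:U), and 25 were above 0, with a median log2 fold change of 0.14; of all tested genes 7.3% had such a p and 49.4% were above 0. These were Cenph (0.33 ± 0.11, SE) of the inner kinetochore and the 3 genes of the SKA complex, which holds kinetochores on microtubule ends: Ska3 (0.37 ± 0.14), Ska2 (0.27 ± 0.11) and Ska1 (0.40 ± 0.18). Each had an adjusted p of 0.677. The list's median was -0.03 without PBS 1 to PBS 3 and -0.06 with the shared name parts as terms. Of 40 other spindle and cytokinesis genes, 0 had an unadjusted p below 0.05 and 29 were above 0 (median 0.06); Tacc3 and Pbk, with the smallest p, gave 0.16 ± 0.12 and 0.16 ± 0.13. The 18 condensin and cohesin genes had a median of 0.01, with 10 above 0, Ncapg at 0.36 ± 0.22 and Ncapg2 at 0.25 ± 0.17. CDK1 regulators (12 genes) had a median of 0.09, with Bora, which helps activate PLK1, at 0.29 ± 0.14 and the CDK1 inhibitor Pkmyt1 at 0.24 ± 0.13. The 16 APC/C genes, most of them present through the whole cycle, had a median of -0.00, with Fzr1, the coactivator of late mitosis and G1, at -0.11 ± 0.08 and Anapc13 at 0.14 ± 0.14.

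The MuvB and DREAM list (14 genes), which holds the factors that switch these promoters off and on, had 2 genes with an unadjusted p below 0.05, the NF-Y subunit Nfyb (0.23 ± 0.09, SE) and E2f5 (0.34 ± 0.13), beside 7.3% of all tested genes. Its median was 0.07, with 8 above 0. Of 30 G1/S and DNA replication genes 26 were above 0 (median 0.08) and 1 had an unadjusted p below 0.05, Slbp, which binds histone mRNA (0.22 ± 0.09), beside 49.4% and 7.3% of all tested genes. Without PBS 1 to PBS 3 the median of this list was -0.14, and with the shared name parts as terms -0.11. CDK inhibitors and arrest genes (14) had a median of -0.09, with 4 above 0; Gadd45a, a stress gene, gave 0.60 ± 0.25 and was the 1 gene of the 14 with an unadjusted p below 0.05. Over all settings run, the median of each of the 8 lists took both signs, from -0.15 to 0.25 for the other spindle and cytokinesis genes, from -0.14 to 0.19 for condensin and cohesin genes and from -0.18 to 0.29 for CDK1 regulators.

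The lists differed in how closely they followed the score of the 34 genes over the 10 libraries. The median r was 0.88 for other spindle and cytokinesis genes, 0.86 for condensin and cohesin genes, and 0.73 for G1/S and DNA replication genes. It was 0.17 for APC/C subunits and -0.08 for CDK inhibitors and arrest genes. Without PBS 4 these medians were 0.87, 0.84, 0.52, -0.18 and -0.21 in the same order. Kif4, a chromosome-bound motor, reached 0.99, and 0.98 without PBS 4. Outside every list, among 8201 protein-coding genes of 10 CPM or more, the 10 genes most like the score were Kif24 (r = 0.97), Edc4, Fignl1, Plk4, Zwilch, Wdr62, Parpbp, Exog, Tmpo and E2f8 (r = 0.94). Without PBS 4 and Poly(A:U) 5 these 10 had r between 0.86 and 0.95 over 8 libraries. They were chosen by their r over all 10 libraries, which include these 8, so a high r follows in part from the choice. The 5 genes most opposite were Marc2 (r = -0.97), Cirbp, Rdh12, Pip4p1 and Nudt18 (r = -0.95). Plk4, the kinase that starts centriole duplication, reached 63.3 CPM (PBS 4) and 64.4 CPM (Poly(A:U) 5), against between 33.6 and 43.8 CPM in the other 8 libraries.

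Reads of some of these genes could not be assigned with certainty. Ccnb1 and Ccnb2 have named pseudogenes, with which the authors' estimation could have shared reads. Ccna2, Cdc20, Ube2c, Nusap1, Kif20a and Prc1 overlap a gene on the opposite strand (Exosc9, Elovl1, Tnnc2, Oip5, Cdc23 and Rccd1), and whether strand was used is not given in the sources used here. Plk1, Cenpf, Kif11, Ect2, Mki67 and Top2a overlap further annotated genes on the opposite strand. Foxm1 overlaps Tex52 on the same strand, where strand would not separate the reads. Incenp, Ndc80, Kif11, Tpx2, Nusap1, Anln and Top2a also overlap annotated genes on the same strand. Cdc23 and Oip5 are themselves in the lists above.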

How the data were processed

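RNA from sorted leukemia initiating cells of 5 PBS and 5 Poly(A:U) pups was sequenced. Per the file headers, the authors deposited estimated counts of reads and TPM for each of 142333 transcripts; DRAGEN, edgeR 3.38.4 and build mm10 are named in the submitters' processing notes. Neither counter settings nor annotation release nor strand is given in the sources used here. In addition, the authors deposited a normalized signal (CPM) per gene, used as an alternative. Estimated counts were summed per gene with GENCODE M21 (538 transcripts, at most 0.0695% of reads, had no gene) and rounded. Genes kept by filterByExpr (minimum count 10) entered edgeR's quasi-likelihood test (R 4.3.3, edgeR 4.0.16) with TMM scaling, robust fitting and no covariate besides treatment. P-values are Benjamini-Hochberg adjusted over all tested genes, two-sided, at 0.05. Scores use log2 CPM with a prior count of 2. Where length or GC trends were removed, natural splines with 4 degrees of freedom were fitted per library. Alternatives were DESeq2 1.42.0, limma 3.58.1 (voom with quality weights), other scaling and filters, the replicate number as a block, each library left out, and name parts. Leaving out PBS 4 with Poly(A:U) 5, these with PBS 3, or PBS 4 with PBS 5, removing length and GC trends, and the spreads and correlations without PBS 4, were chosen after seeing the data. The scripts were tested on simulated data.

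Each library came from 1 pup, per the series' design text. The 34 genes and all lists were chosen with earlier results of these data known. From each list the text names genes with an unadjusted p below 0.05 (at most 4), otherwise the 2 with the smallest p; genes most like the score were the 10 highest and 5 lowest by r. Other genes were named after their values were seen. The value of 1 marker gene is not reported here.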

Additional observations from a re-analysis of the deposited data

Results flagged for a closer look

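In 16 of 70 groups of 5 values (34 genes and the score, in each treatment), the highest library lay apart from the others by more than 0.71 of the group's whole range. Chance gives this in about 1 of 20 groups, and genes that vary together are not independent. Among the PBS libraries it was PBS 4 for Ccnb1 (163.17 CPM), Plk1 (191.32 CPM), Cdc20 (216.93 CPM) and Kif2c (78.912 CPM). Among the Poly(A:U) libraries it was Poly(A:U) 5 for the score (0.35365) and for 9 genes: Foxm1 (137.33 CPM), Cenpe (180.8 CPM), Cenpf (223.27 CPM), Nuf2 (80.525 CPM), Tpx2 (240.92 CPM), Hmmr (112.42 CPM), Kif23 (128.89 CPM), Anln (59.684 CPM) and Mki67 (1606.2 CPM). Poly(A:U) 2 lay apart for Birc5 (116.87 CPM) and Ube2c (213.9 CPM), the 2 genes with the shortest transcripts of the 34. The value in the PBS group lay apart only upwards, for the 4 genes named, and PBS 3, the lowest library for 31 of 34 genes, did not pass this limit for any of them.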

How the results depend on the processing

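No gene was called among all tested genes with edgeR's test, and the count was 13 with DESeq2's Wald test, 870 with limma voom with quality weights, 603 without PBS 4 and PBS 5 (added after seeing the data), and 0 to 18 over leaving out each library in turn, the 18 without PBS 5. Of the 34 genes, 1 (Fbxo5) was called with voom and 2 (Aurkb and Fbxo5) without PBS 4 and PBS 5; the cause was not tested. The median log2 fold change of the 34 ran from -0.05 to 0.18 over leaving out each library, and was -0.19 without PBS 1 to PBS 3. With the replicate number as a block the median was 0.06, with 0 of 34 and 0 of all genes called. Same-numbered libraries had correlations of their deviations between -0.19 and 0.24. With 1 value a pair, these do not settle whether the replicate numbers pair the samples. Libraries that share a number in their deposited names had correlations of 0.27 for PBS 4 and Poly(A:U) 5. The other such pairs had 0.17 (PBS 5 and Poly(A:U) 1) and 0.10 (Poly(A:U) 3 and Poly(A:U) 4). With the shared name parts as terms, 0 genes were called and the median of the 34 was -0.10. The treatment term of that fit rests only on PBS 4 with Poly(A:U) 5 and PBS 5 with Poly(A:U) 1. Over all alternatives, single genes kept their side of the threshold with a shift below 1 SD in 829 values, shifted further in 18, and passed the threshold in 3 (Aurkb once, Fbxo5 in 2 fits). No called value changed sign. Other settings are listed in the report where they change a direction. Each of the 34 genes had at least 378 reads in every library, and the median SD within groups was 0.26 on the log2 scale.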
